A study of Mus musculus with 27 samples.

Results

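The 8 genes described here, Hk2, Aldoa, Pklr, Pkm, Ldha, Fbp1, G6pc1 and Ppargc1a, sit where liver cells set the direction of glucose flow, and were taken by symbol from the 55414 genes counted in whole mouse liver. All 8 had a row, and all 8 were among the 14114 genes kept for testing because they averaged 10 counts or more over the libraries. RNA came from total liver of female Balb/c mice, 8 weeks old, and each of the 27 libraries was 1 mouse. Injury was induced with carbon tetrachloride (CCl4), a hepatotoxin given intraperitoneally for 2 weeks, and mice without injury received olive oil by the same route. 4MU is 4-methylumbelliferone, an oral inhibitor of hyaluronan synthesis. siHAS2-LNP is a small interfering RNA against hyaluronan synthase 2 in lipid nanoparticles given into the tail vein, and siLuc-LNP carries a luciferase sequence that targets no mouse gene. Without CCl4, there were 4 control mice (olive oil, with PBS into the tail vein by the labels), 3 given 4MU by daily gavage, 3 given siLuc-LNP and 3 given siHAS2-LNP. With CCl4, there were 2 mice given CCl4 alone, 4 given CCl4+4MU, 4 given CCl4+siLuc-LNP and 4 given CCl4+siHAS2-LNP, and treatment began 2 days before the first CCl4 dose. The study's methods describe controls gavaged with the carboxymethyl cellulose vehicle of 4MU, which the labels of the control mice do not mention, so whether 4MU and control mice differed in gavage is not known here. Mice had free access to food and water, and the feeding state at tissue collection was not given in the sources used here.

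Glycolysis splits glucose into pyruvate, and gluconeogenesis runs the route backwards so that the liver can release glucose in fasting. Its irreversible steps use different enzymes in each direction, and hepatocytes use their own isozymes at several steps (Pklr among them), whereas proliferating and non-parenchymal cells use Hk1 or Hk2, Aldoa and Pkm. Fbp1 and G6pc1 are enzymes of glucose production, and Ppargc1a is a coactivator that induces their genes in fasting.

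Total counts ran from 7044386 (CCl4+siHAS2-LNP mouse 4) to 29425937 per library. The lowest count of a member in any library was 10 for Hk2, 117 for Ppargc1a and 157 for Pkm, and at least 618 for each of the other 5. Has2, the gene targeted by siHAS2-LNP, had 0 to 2 counts and was at 0 in 25 of 27 libraries, so its knockdown could not be checked in whole liver. The 7 hepatocyte markers were detected in every group, and their summed level in CPM (counts scaled to a common library total) was 123000 to 197000 without CCl4 and 73000 to 176000 with it. Skeletal muscle markers summed to at most 0.114 CPM. The summed level of 5 duct epithelium markers was 122 CPM in CCl4+4MU mouse 4 and at most 23.8 CPM in every other library. All levels below are CPM on library sizes scaled by the trimmed mean of M values (TMM), and in bulk tissue fewer cells of a type and less RNA per cell cannot be told apart.

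With CCl4, Pkm and Ldha rose in untreated mice and Pklr fell, while Hk2, Aldoa, Fbp1, G6pc1 and Ppargc1a did not pass the test. Thus 3 of 8 members passed, beside 34.0% of all genes. Within the 4MU arm (CCl4+4MU against 4MU) 3 of 8 passed, Pkm, Ldha and Hk2, all higher, beside 23.7% of genes. Within the siLuc-LNP arm the 2 that passed were Pkm and Ldha, beside 24.2% of genes. Within the siHAS2-LNP arm Ldha alone passed, beside 12.8% of genes. Averaged over the 4 arms, with each arm given equal weight, 5 of 8 members passed, beside 51.9% of genes. Of these, 3 were higher (Pkm, Ldha and Hk2), beside 26.3% of genes, and 2 were lower (Pklr and G6pc1), beside 25.6% of genes. The median log2 fold change of the 8 members in the averaged effect was -0.0021, and that of all genes was -0.0153. These shares of 8 genes are read against the background only, and the values of each gene follow.

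**Figure D1:**
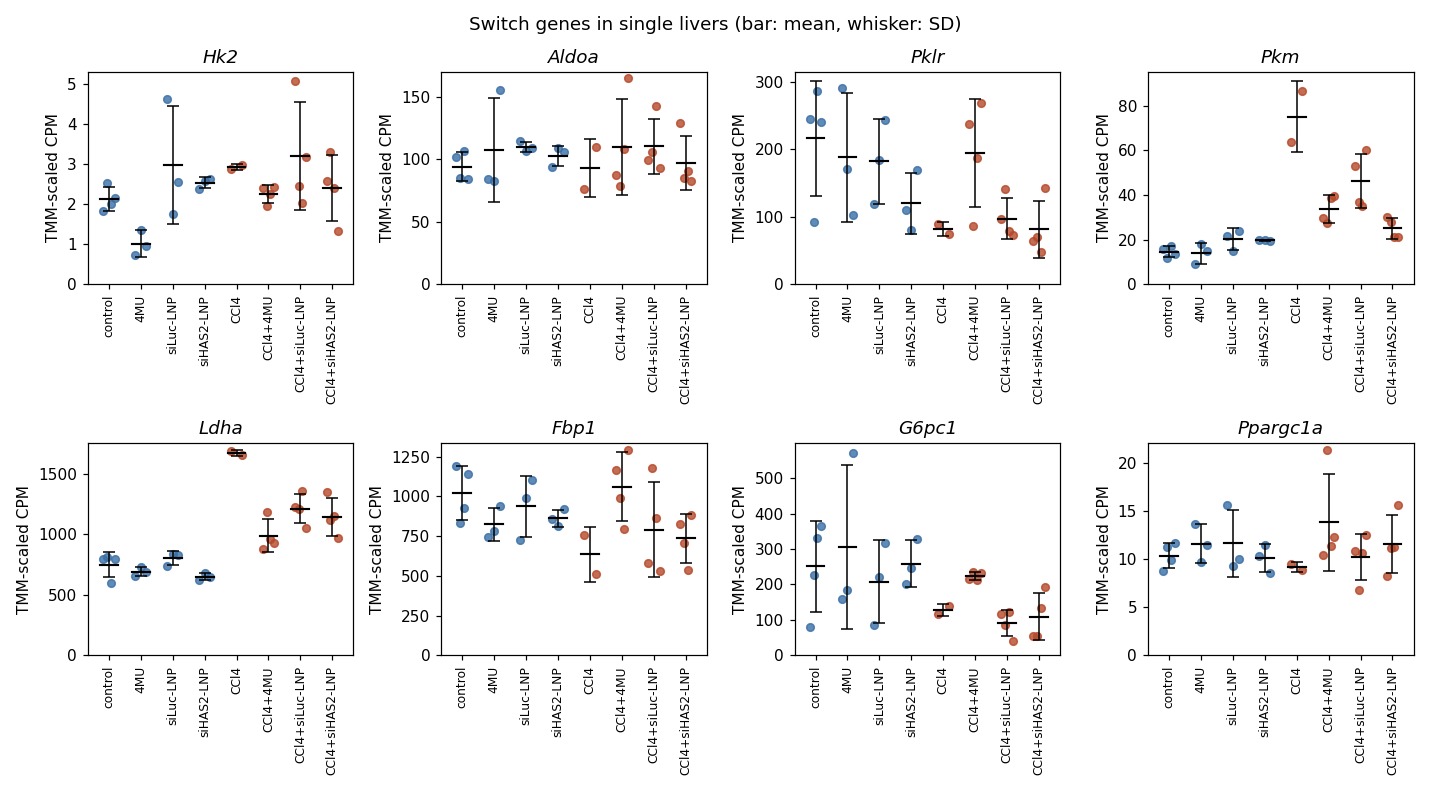
Level of each of the 8 genes (TMM-scaled CPM, linear axes from 0) in every mouse of the 8 groups, blue without CCl4 and red with CCl4; horizontal bars are group means and whiskers are SD. Pkm and Ldha in the 2 CCl4 mice lie above every other mouse, whereas group means of Aldoa (93.0 to 110.4 CPM) and Ppargc1a (9.20 to 13.9 CPM) lie close together.

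The pyruvate kinase genes moved in opposite directions in CCl4 against control mice and in the averaged effect. In the 4MU arm Pkm rose while Pklr was at a log2 fold change of 0.05, and Pklr passed in neither siRNA arm. Pkm encodes the M isozymes of pyruvate kinase, found in most tissues but scarce in hepatocytes, and gene counts do not separate its M1 and M2 splice forms. Pklr encodes the liver and red cell isozymes, and its product is the main pyruvate kinase of hepatocytes.

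Pkm (ENSMUSG00000032294, chr9:59563364-59586663, plus strand, GRCm39) was at 15.9, 11.9, 17.3 and 13.3 CPM in control mice. It was at 63.8 and 86.4 CPM in the CCl4 mice. All other mice given CCl4 lay between 21.0 and 60.0 CPM, and the mice without CCl4 between 8.81 and 24.0 CPM. These ranges overlapped only in that 2 CCl4+siHAS2-LNP mice (21.2 and 21.0 CPM) lay below 2 siLuc-LNP mice (21.6 and 24.0 CPM). The rise in CCl4 against control mice was 2.36 on the log2 scale (standard error, SE, 0.246, adjusted p = 8.46e-08). Every adjusted p is from the quasi-likelihood test of edgeR, adjusted by Benjamini-Hochberg over 14114 genes, unless DESeq2 is named. In the 4MU arm it was 1.28 (SE 0.236, adjusted p = 0.000317). The 4 CCl4+4MU mice were at 29.5, 27.2, 38.5 and 39.4 CPM and the 3 4MU mice at 8.81, 17.9 and 14.6 CPM, with no overlap. In the siLuc-LNP arm it was 1.20 (SE 0.234, adjusted p = 0.000518). There the mice given CCl4 were at 53.1, 36.9, 34.9 and 60.0 CPM, and those without at 21.6, 14.6 and 24.0 CPM. In the siHAS2-LNP arm the difference was 0.36 (SE 0.230, adjusted p = 0.331) and did not pass. Here all 4 mice given CCl4 (30.1, 28.03, 21.2 and 21.0 CPM) still lay above the 3 without (20.0, 19.6 and 19.3 CPM). The averaged rise was 1.30 (SE 0.119, adjusted p = 2.1e-09).

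Pklr (ENSMUSG00000041237, chr3:89043449-89054619, plus strand, GRCm39) was at 245, 91.9, 287 and 241 CPM in control mice and at 89.2 and 74.8 CPM in CCl4 mice. Both CCl4 mice lay below all 4 controls, by a small margin for control mouse 2. The fall was 1.4 on the log2 scale (log2 fold change -1.4, SE 0.506, adjusted p = 0.0348). This call rested on few mice: without either CCl4 mouse, or without control mouse 1, 3 or 4, the adjusted p was 0.0578 to 0.226, with log2 fold changes of -1.22 to -1.52. In the siLuc-LNP arm the log2 difference was -0.91 (SE 0.415, adjusted p = 0.113) and in the siHAS2-LNP arm it was -0.57 (SE 0.417, adjusted p = 0.407). In the 4MU arm it was 0.05 (SE 0.417, adjusted p = 0.946). The CCl4+4MU mice were at 238, 86.2, 187 and 269 CPM, within the 102.6 to 291.5 CPM of the 4MU mice except for mouse 2. The averaged effect was a fall of 0.71 (SE 0.218, adjusted p = 0.00891). Red cells also use a product of Pklr, and the 3 erythroid markers summed to 218 to 366 CPM in control and 167 and 194 CPM in CCl4 mice; their part in the level of Pklr was not tested.

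Per kb of merged exons, the log2 ratio of Pkm to Pklr was -5.62 ± 0.562 (SD, n = 4) in control mice and -1.97 ± 0.490 (SD, n = 2) in CCl4 mice. It was -4.26 ± 0.595 (n = 4) in CCl4+4MU, -2.89 ± 0.689 (n = 4) in CCl4+siLuc-LNP and -3.42 ± 0.789 (n = 4) in CCl4+siHAS2-LNP mice. Over all 13 mice without CCl4 the ratio ran from -6.88 to -3.87, and over the 14 with CCl4 from -4.84 to -1.62. The CCl4+4MU mice lay within the range of the mice without CCl4 apart from 1 of 4. These ratios are descriptions with no test. With the length of the canonical transcript in place of merged exons, the ratio shifted by 2.32 in every library, so its level depends on the length chosen and differences between groups do not.

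The stretches of 250 bases before the RefSeq start nearest the canonical start of each pyruvate kinase gene are shown. They were picked because these genes moved in opposite directions in CCl4 against control mice and in the averaged effect. Both were placed on GRCm39 by an exact match and read on the strand of the gene, and both are in lower case because none of the 4 motifs searched was found in them (the E-box, the hypoxia core, the cAMP response element and the forkhead letters, spelled out with Ldha below and searched on both strands). Pkm lies at chr9:59563609-59563858 and Pklr at chr3:89043680-89043929, each on the plus strand. No match says only that these exact letters are not in the window, and imperfect copies of a motif were not searched for. The window of the other RefSeq start of Pkm, not shown, held 2 matches to the hypoxia core, at -75 and 9.
Pkm: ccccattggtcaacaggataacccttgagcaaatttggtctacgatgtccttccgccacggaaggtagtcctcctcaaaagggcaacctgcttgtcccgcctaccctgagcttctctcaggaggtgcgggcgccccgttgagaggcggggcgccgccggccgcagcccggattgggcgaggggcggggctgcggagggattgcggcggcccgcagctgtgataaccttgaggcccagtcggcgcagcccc
Pklr: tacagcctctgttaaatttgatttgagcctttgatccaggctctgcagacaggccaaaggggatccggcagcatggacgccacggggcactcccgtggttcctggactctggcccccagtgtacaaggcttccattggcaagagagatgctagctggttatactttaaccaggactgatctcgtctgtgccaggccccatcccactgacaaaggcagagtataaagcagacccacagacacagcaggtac

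Markers of other cell types also differed between these groups. The summed level of 6 stellate cell and myofibroblast markers was 41.6 to 75.9 CPM in control and 403 to 656 CPM in CCl4 mice. It was 142 to 414 CPM with CCl4+4MU, 245 to 756 CPM with CCl4+siLuc-LNP and 168 to 263 CPM with CCl4+siHAS2-LNP. The 5 proliferation markers summed to 6.38 to 10.8 CPM in control and 289 to 552 CPM in CCl4 mice. They summed to 44.4 to 197 CPM with CCl4+4MU, 152 to 460 CPM with CCl4+siLuc-LNP and 142 to 170 CPM with CCl4+siHAS2-LNP. The 7 macrophage and Kupffer cell markers were at 232 to 400 CPM in control, 335 to 370 CPM in CCl4 and 383 to 627 CPM in CCl4+4MU mice. They were at 238 to 458 CPM in CCl4+siLuc-LNP and 153 to 245 CPM in CCl4+siHAS2-LNP mice. Taken singly, 4 of the 7 were higher and 0 lower in CCl4 against control mice (median log2 fold change 1.13), beside 34.0% of genes. In the 4MU arm 6 were higher and 0 lower (median 1.8), beside 23.7%. In the siLuc-LNP arm 1 was higher and 1 lower (median 0.715), beside 24.2%. In the siHAS2-LNP arm 0 were higher and 2 lower (median -0.205), beside 12.8%. The genes whose level over the 27 libraries was most like that of Pkm were Vim (Spearman rho 0.948), which encodes the mesenchymal filament vimentin, Oxct1 (0.944) and Capg (0.942). These are descriptions over libraries that share groups, and the part of other cell types in the level of Pkm was not tested.

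Ldha, the A subunit of lactate dehydrogenase, which interconverts pyruvate and lactate, rose with CCl4 in every arm. The gene (ENSMUSG00000063229, chr7:46490899-46505061, plus strand, GRCm39) was at 791, 809, 595 and 797 CPM in control mice. The CCl4 mice were at 1689 and 1654 CPM, above all 25 others. The rise was 1.16 on the log2 scale (SE 0.160, adjusted p = 5.63e-06). It was 0.52 (SE 0.147, adjusted p = 0.0124) in the 4MU arm, where the 4 mice given CCl4 were at 882, 1185, 958 and 926 CPM and the 3 others at 653 to 728 CPM. It was 0.60 (SE 0.148, adjusted p = 0.00453) in the siLuc-LNP arm and 0.82 (SE 0.149, adjusted p = 0.000586) in the siHAS2-LNP arm. In each of the 4 arms no mouse given CCl4 overlapped with those without it. Averaged, the rise was 0.77 (SE 0.0758, adjusted p = 6.89e-09). Without CCl4+4MU mouse 2, the rise in the 4MU arm was 0.41 and no longer passed (adjusted p = 0.0508), and without the low-count filter neither that arm (adjusted p = 0.104) nor the siLuc-LNP arm (adjusted p = 0.0552) passed. The B subunit gene Ldhb, at 1.06 to 1.58 CPM in control mice, rose by 0.99 in the averaged effect (SE 0.159, adjusted p = 1.41e-05). The log2 ratio of Ldha to Ldhb per kb of merged exons was 9.09 ± 0.445 (SD, n = 4) in control mice and 9.04 ± 0.0498 (SD, n = 2) in CCl4 mice. The genes most like Ldha across libraries were Lif (rho 0.899), a cytokine of the interleukin-6 family, Cgref1 (0.888) and Apoa4 (0.888).

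The promoter of Ldha is shown because it held more of the searched motifs than that of any other member. The 250 bases before its RefSeq start are at chr7:46494978-46495227 (GRCm39, plus strand, exact match), and capitals mark the motifs. They hold 2 copies of the E-box CACGTG, starting at -145 and -48 from the start site, a separate copy of the hypoxia-inducible factor core ACGTG on the other strand at -34, and the cAMP response element TGACGTCA at -12. CACGTG contains ACGTG on both strands, so those matches overlap.
Ldha: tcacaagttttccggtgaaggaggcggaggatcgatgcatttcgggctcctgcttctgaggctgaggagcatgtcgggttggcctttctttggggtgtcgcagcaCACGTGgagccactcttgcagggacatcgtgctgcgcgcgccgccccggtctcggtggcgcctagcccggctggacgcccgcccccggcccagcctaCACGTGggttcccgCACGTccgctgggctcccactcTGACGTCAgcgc
Of 32851 RefSeq promoter windows of 300 bases (250 before and 50 after the start), CACGTG was found in 7.15%, ACGTG in 19.6%, TGACGTCA in 1.79% and the forkhead letters TGTTTAC in 3.65%. Among the window nearest the canonical start of each of the 8 members, CACGTG and TGACGTCA were found in Ldha, and ACGTG in Aldoa, Hk2, Ldha and Ppargc1a. TGTTTAC was found in none of the 8. The window of Ppargc1a lay 13803 bases from the start of its canonical transcript. A match is a description of letters and not a binding site.

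Hk2, a hexokinase of muscle, tumour and activated cells that is scarce in hepatocytes, was low in all groups. The gene (ENSMUSG00000000628, chr6:82699740-82751469, minus strand, GRCm39) lay between 0.717 and 5.09 CPM in the 27 mice. Control mice were at 1.83, 2.54, 2.01 and 2.17 CPM, and the 4MU mice were the lowest group, at 0.717, 1.37 and 0.962 CPM. The CCl4+4MU mice were at 2.41, 1.95, 2.25 and 2.42 CPM, all above the 4MU mice and within the range of the controls. The difference between these groups was 1.14 on the log2 scale (SE 0.337, adjusted p = 0.0163). Without CCl4, 4MU against control mice gave -1.05 (SE 0.339, adjusted p = 0.401), and the 3 4MU mice lay below all 4 controls. Without 4MU mouse 1 or 3 the rise in the 4MU arm was 0.95 or 1.09 and did not pass (adjusted p = 0.0775 and 0.0622). CCl4 against control gave 0.46 (SE 0.349, adjusted p = 0.328). The siLuc-LNP and siHAS2-LNP arms gave 0.11 (SE 0.309, adjusted p = 0.828) and -0.03 (SE 0.316, adjusted p = 0.968). The averaged rise of 0.42 (SE 0.164, adjusted p = 0.0354) was lost on leaving out any of 9 single mice, with log2 fold changes of 0.35 to 0.41 and adjusted p of 0.05 to 0.0689. These were 4MU mice 1 and 3, CCl4 mouse 2, CCl4+siHAS2-LNP mouse 2, CCl4+siLuc-LNP mouse 1, control mouse 1, siHAS2-LNP mouse 1 and siLuc-LNP mice 2 and 3.

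Hk1, the housekeeping hexokinase, rose by 0.61 in the averaged effect (SE 0.140, adjusted p = 0.000839), and the log2 ratio of Hk2 to Hk1 per kb of merged exons was -0.25 ± 0.421 (SD, n = 4) in control mice, with -0.53 ± 0.458 (SD, n = 2) after CCl4.

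**Figure D2:**
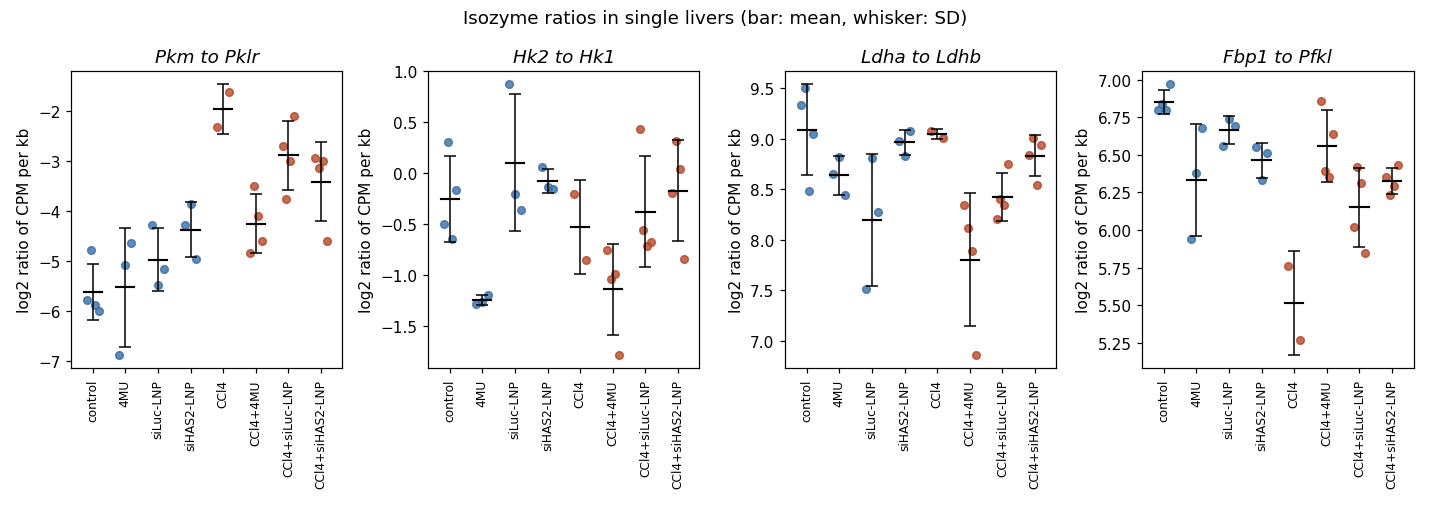
Log2 ratio of Pkm to Pklr, Hk2 to Hk1, Ldha to Ldhb and Fbp1 to Pfkl (vertical axes, CPM per kb of merged exons) in every mouse of the 8 groups, blue without CCl4 and red with CCl4; bars are means and whiskers are SD. The CCl4 mice have the highest group mean of Pkm to Pklr (-1.97) and the lowest of Fbp1 to Pfkl (5.52).

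Aldoa, the muscle-type aldolase, did not pass in any comparison. The gene (ENSMUSG00000030695, chr7:126393822-126399923, minus strand, GRCm39) lay between 76.5 and 165 CPM in the 27 mice. CCl4 mice were at 76.5 and 109.6 CPM and control mice at 102, 84.9, 106 and 84.2 CPM. The log2 difference was -0.02 (SE 0.267, 95% interval -0.54 to 0.50, adjusted p = 0.963) for CCl4 against control and -0.02 (SE 0.122, 95% interval -0.26 to 0.22, adjusted p = 0.919) averaged. The highest level, 165 CPM, was in CCl4+4MU mouse 4, the library with the high duct markers. Aldoa overlaps 2 protein-coding genes, Tlcd3b on the other strand and the predicted gene Gm57854, and the strand setting of the counting was not given, so its count may share reads.

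Fbp1 and G6pc1 encode enzymes of the way back to glucose. Fbp1, fructose-1,6-bisphosphatase, was the more even of the pair across mice. The gene (ENSMUSG00000069805, chr13:63012567-63036263, minus strand, GRCm39) was at 1191, 831, 927 and 1139 CPM in control mice and at 759 and 513 CPM in CCl4 mice. The 2 groups did not overlap, but the log2 difference of -0.68 (SE 0.282, adjusted p = 0.0633) did not pass. It was 0.37 (SE 0.244, adjusted p = 0.294) in the 4MU arm, -0.25 (SE 0.241, adjusted p = 0.486) in the siLuc-LNP arm and -0.23 (SE 0.241, adjusted p = 0.593) in the siHAS2-LNP arm. Averaged it was -0.20 (SE 0.125, 95% interval -0.44 to 0.05, adjusted p = 0.189). The value against control passed by DESeq2 (-0.67, adjusted p = 0.0422), and without CCl4 mouse 1 it was -0.98 and passed (adjusted p = 0.0475). Among the genes most like Fbp1 were F12 (rho 0.894), coagulation factor XII, and Gnmt (0.879), a methyltransferase of hepatocytes. Pfkl, the liver phosphofructokinase that Fbp1 opposes, rose by 0.63 in CCl4 against control mice (SE 0.191, adjusted p = 0.0137). The log2 ratio of Fbp1 to Pfkl per kb of merged exons was 6.85 ± 0.0802 in the controls (SD, n = 4) and 5.52 ± 0.341 with CCl4 (SD, n = 2), with 6.56 ± 0.237 (SD, n = 4) in CCl4+4MU mice.

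G6pc1, the catalytic subunit of glucose-6-phosphatase that frees glucose for release into blood, was lower with CCl4 on average and variable between mice. The gene (ENSMUSG00000078650, chr11:101258369-101268729, plus strand, GRCm39) was at 80.8, 225, 331 and 366 CPM in control mice and at 117 and 139.6 CPM in CCl4 mice. It was at 160, 185 and 572 CPM in 4MU mice, and at 215, 234, 214 and 233 CPM in CCl4+4MU mice, the narrowest spread of the 4 groups with 4 mice. CCl4+siLuc-LNP mice were at 117, 85.4, 122 and 41.7 CPM against 85.0, 220 and 318 CPM in siLuc-LNP mice. CCl4+siHAS2-LNP mice were at 55.3, 55.9, 133 and 194 CPM, all below the 200.3, 247 and 329 CPM of siHAS2-LNP mice. No single arm passed the test, with log2 fold changes of -0.97 (SE 0.596, adjusted p = 0.214) in untreated mice, -0.45 (SE 0.500, adjusted p = 0.549) in the 4MU arm, -1.19 (SE 0.500, adjusted p = 0.0861) in the siLuc-LNP arm and -1.25 (SE 0.501, adjusted p = 0.103) in the siHAS2-LNP arm. The averaged fall of 0.96 (log2 fold change -0.96, SE 0.264, adjusted p = 0.0038) did. Without siLuc-LNP mouse 1 the value in the siLuc-LNP arm was -1.56 and passed (adjusted p = 0.0398), and without CCl4+siHAS2-LNP mouse 4 that in the siHAS2-LNP arm was -1.66 and passed (adjusted p = 0.0431). Without the low-count filter, the values in untreated mice (-0.96, adjusted p = 0.0185) and in both siRNA arms passed. Without 4MU mouse 3, at 572 CPM, the value in the 4MU arm turned to 0.38. The genes most like G6pc1 were Slc25a25 (rho 0.836), Gadd45g (0.814) and Dusp1 (0.811), of which the last is an immediate early gene. The log2 ratio of G6pc1 to Pklr per kb of merged exons was 0.76 ± 1.24 (SD, n = 4) in control mice and 1.27 ± 0.363 (SD, n = 2) after CCl4.

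Ppargc1a, which encodes the coactivator PGC-1 alpha, did not pass in any comparison. The gene (ENSMUSG00000029167, chr5:51611592-51725068, minus strand, GRCm39) was at 8.75, 11.3, 9.91 and 11.7 CPM in control mice and at 9.54 and 8.85 CPM in CCl4 mice. Its highest value was 21.4 CPM in CCl4+4MU mouse 2, and the other 3 mice of that group were at 10.4 to 12.3 CPM. The log2 difference was -0.18 (SE 0.281, 95% interval -0.73 to 0.37, adjusted p = 0.651) for CCl4 against control and 0.01 (SE 0.127, 95% interval -0.24 to 0.26, adjusted p = 0.943) averaged.

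**Figure D3:**
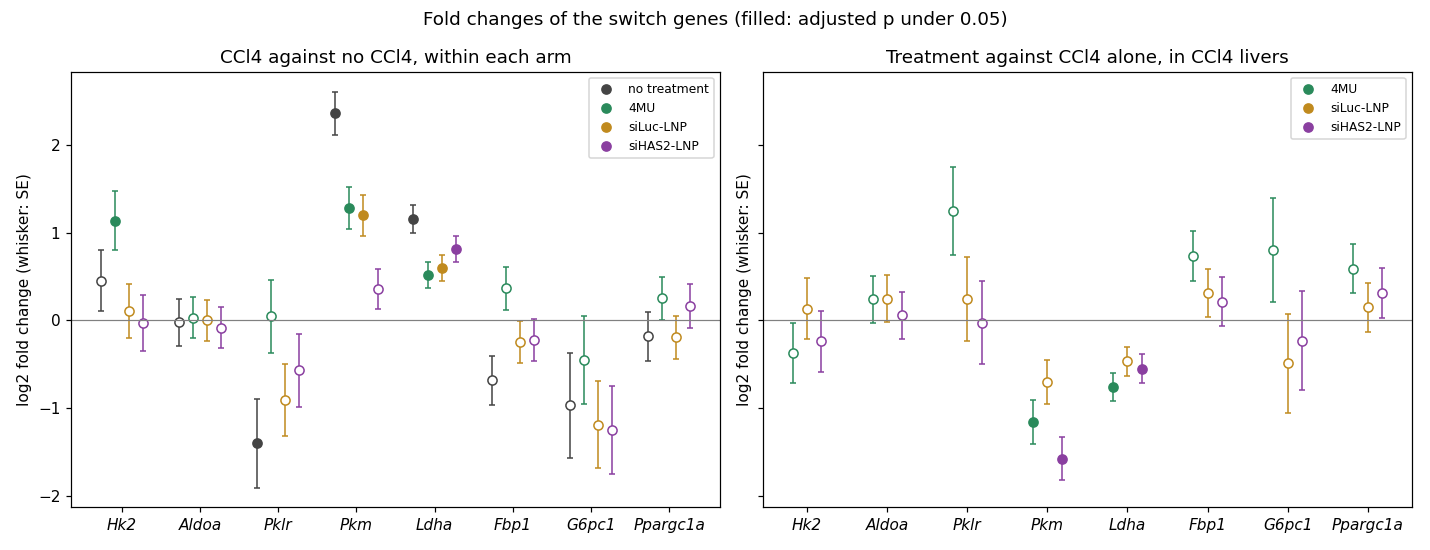
Log2 fold change of each member (points, whiskers are SE) for CCl4 against no CCl4 within each of the 4 arms (left) and for each treatment against CCl4 alone (right); filled points have an adjusted p under 0.05. The rise of Pkm is 2.36 in untreated mice and 0.36 in the siHAS2-LNP arm, and all treatments have values below 0 for Pkm and Ldha in the right panel.

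In livers given CCl4, Pkm and Ldha were lower with 4MU and with siHAS2-LNP than with CCl4 alone. These comparisons, and that of siLuc-LNP, share the same 2 CCl4 mice. With 4MU, 2 of 8 members passed, both lower, beside 18.3% of genes. Pkm fell by 1.16 (log2 fold change -1.16, SE 0.246, adjusted p = 0.003) and Ldha by 0.76 (log2 fold change -0.76, SE 0.161, adjusted p = 0.00305). Members typical of hepatocytes were higher without passing: Pklr by 1.25 (SE 0.502, adjusted p = 0.0822), G6pc1 by 0.80 (SE 0.591, adjusted p = 0.351) and Fbp1 by 0.74 (SE 0.283, adjusted p = 0.0695). All 4 CCl4+4MU mice lay above both CCl4 mice for G6pc1 and Fbp1, and 3 of 4 did for Pklr. All 4 also lay above for Ppargc1a (0.59, SE 0.284, adjusted p = 0.143). For Pkm, Ldha and Hk2 all 4 lay below, though Hk2 did not pass (-0.37, SE 0.347, adjusted p = 0.474). The share of all genes whose mice separated in this way was not counted. With 4 mice against 2 these separations therefore have no background, and they are not read as results for members that did not pass. DESeq2 called 4 members here, Pklr (adjusted p = 0.0436) and Fbp1 (adjusted p = 0.0469) in addition, beside 21.5% of genes. In the same comparison 3 of the 7 hepatocyte markers were higher and 0 lower by edgeR, with a median of 0.67, and their sums were 73000 and 128000 CPM in CCl4 and 147000 to 176000 CPM in CCl4+4MU mice; their part in these values was not tested. Without CCl4+4MU mouse 2, at 86.2 CPM, Pklr was higher by 1.46 and passed (adjusted p = 0.0451), and without CCl4+4MU mouse 3 Fbp1 was higher by 0.85 and passed (adjusted p = 0.0429). Without CCl4 mouse 2, the one with more Pkm, the fall of Pkm was 0.95 (log2 fold change -0.95) and did not pass (adjusted p = 0.107).

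With siHAS2-LNP, 2 of 8 members passed, beside 14.4% of genes. Pkm fell by 1.58 (log2 fold change -1.58, SE 0.246, adjusted p = 0.000625) and Ldha by 0.55 (log2 fold change -0.55, SE 0.162, adjusted p = 0.0263). The call of Ldha was lost without either CCl4 mouse or without CCl4+siHAS2-LNP mouse 4, with log2 fold changes of -0.48 to -0.59 and adjusted p of 0.0645 to 0.139. With siLuc-LNP, 0 of 8 passed by edgeR, beside 0.248% of genes, and 0 by DESeq2, beside 2.37%. At an unadjusted p under 0.05 there were 2 (Pkm and Ldha), beside 14.2% of genes. Pkm was at -0.70 (SE 0.248, adjusted p = 0.189) and Ldha at -0.47 (SE 0.163, adjusted p = 0.184), and for both genes all 4 CCl4+siLuc-LNP mice lay below both CCl4 mice. Without CCl4+siLuc-LNP mouse 4 Pkm was at -0.85 and passed (adjusted p = 0.0437). Against siLuc-LNP, siHAS2-LNP lowered 1 of 8 members, beside 1.09% of genes. This was Pkm, with a fall of 0.88 (log2 fold change -0.88, SE 0.211, adjusted p = 0.0424) and no overlap between the 4 mice of either group. This call was lost on leaving out CCl4+siHAS2-LNP mouse 2, 3 or 4 or CCl4+siLuc-LNP mouse 1 or 4, with log2 fold changes of -0.76 to -0.95 and adjusted p of 0.0644 to 0.176.

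Without CCl4, no member passed by edgeR's test with 4MU (beside 0.00709% of genes), with siLuc-LNP (beside 0.213%) or with siHAS2-LNP against siLuc-LNP (beside 0.0425%). DESeq2 also called 0 in each, beside 0.419%, 0.476% and 0.547% of genes. At an unadjusted p under 0.05 the edgeR counts were 1 (Hk2), 0 and 0, beside 6.84%, 6.80% and 8.94% of genes. The test of whether CCl4 acted differently with 4MU than without also gave 0 of 8 members by edgeR, beside 5.67% of genes, with 4 at an unadjusted p under 0.05, beside 25.5% of genes. The values were -1.08 (SE 0.339, adjusted p = 0.0564) for Pkm, -0.64 (SE 0.219, adjusted p = 0.0754) for Ldha, 1.05 (SE 0.372, adjusted p = 0.0838) for Fbp1 and 1.45 (SE 0.648, adjusted p = 0.162) for Pklr. By DESeq2, which called 11.4% of genes here, 3 of these passed, Pkm at -1.10 (adjusted p = 0.0299), Ldha at -0.66 (adjusted p = 0.0159) and Fbp1 at 1.03 (adjusted p = 0.0453). Leaving out 4MU mouse 1, CCl4 mouse 1 or CCl4+4MU mouse 3 brought Pkm past the threshold in edgeR (-1.15 to -1.33, adjusted p of 0.0284 to 0.04999), as leaving out CCl4+4MU mouse 2 did for Ldha (-0.76, adjusted p = 0.0485). The corresponding test for siHAS2-LNP against siLuc-LNP gave 0 of 8 by edgeR, beside 0.0354% of genes, and 0 by DESeq2, beside 0.476%, with -0.84 for Pkm (SE 0.323, unadjusted p = 0.0153, adjusted p = 0.311), the only member under 0.05 before adjustment (beside 11.4% of genes).

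Ordered by group mean, Pkm was highest in CCl4 (75.1 CPM), then CCl4+siLuc-LNP (46.2), CCl4+4MU (33.6), CCl4+siHAS2-LNP (25.1), siLuc-LNP (20.1), siHAS2-LNP (19.6), control (14.6) and 4MU (13.8). Mice of neighbouring groups in this order overlapped except between CCl4 and CCl4+siLuc-LNP and between siHAS2-LNP and control. Ldha had the same leading group, CCl4 (1672 CPM), followed by CCl4+siLuc-LNP (1210.0), CCl4+siHAS2-LNP (1143), CCl4+4MU (988), siLuc-LNP (800.4), control (748), 4MU (689) and siHAS2-LNP (650), with gaps below CCl4 and below CCl4+4MU. Pklr ran from 216 CPM in control and 195 CPM in CCl4+4MU to 82.0 CPM in CCl4 and 81.0 CPM in CCl4+siHAS2-LNP, with every pair of neighbours overlapping. G6pc1 ran from 306 CPM in 4MU to 91.4 CPM in CCl4+siLuc-LNP, Fbp1 from 1061 CPM in CCl4+4MU to 636 CPM in CCl4, Aldoa from 110.4 CPM in CCl4+siLuc-LNP to 93.0 CPM in CCl4 and Ppargc1a from 13.9 CPM in CCl4+4MU to 9.20 CPM in CCl4, again with all neighbours overlapping. Hk2 ran from 3.20 CPM in CCl4+siLuc-LNP to 1.02 CPM in 4MU, with gaps between CCl4 and siHAS2-LNP and between control and 4MU. The highest 4MU mouse (1.37 CPM) still lay above CCl4+siHAS2-LNP mouse 4 (1.34 CPM).

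Of 72 pathway genes, members included, 71 were tested (Eno2 was too low), and in the averaged CCl4 effect 22 were higher, 27 lower and 22 did not pass, beside the 26.3% and 25.6% of all genes. Their median log2 difference was -0.13, against -0.0153 for all genes.

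Of 21 glycolysis enzymes, 11 were higher, 4 lower and 6 did not pass, with a median of 0.28, beside 26.3% of all genes higher and 25.6% lower. Pfkp, the platelet phosphofructokinase, rose by 1.44 (SE 0.140, adjusted p = 5.94e-09) and Ldhb by 0.99. Pfkp was at 2.65 to 3.07 CPM in control and 7.76 and 9.98 CPM in CCl4 mice.

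Of 9 genes of gluconeogenesis and glucose release, 1 was higher, 5 lower and 3 did not pass, with a median of -0.36. Of all genes 26.3% were higher and 25.6% lower. The one that rose was Pck2, the mitochondrial phosphoenolpyruvate carboxykinase (2.34, SE 0.121, adjusted p = 5.57e-14), from 3.78 to 4.66 CPM in control mice to 16.2 and 22.2 CPM in CCl4 mice. The cytosolic enzyme Pck1, the usual rate-setting step of hepatic gluconeogenesis, fell by 1.01 (log2 fold change -1.01, SE 0.236, adjusted p = 0.000947). Pck1 was at 817 to 2342 CPM in control, 595 and 796 CPM in CCl4, 154 to 859 CPM in CCl4+siLuc-LNP, 1018 to 1430 CPM in 4MU and 1487 to 2860 CPM in CCl4+4MU mice. By arm, Pck2 rose in all 4 (2.18 to 2.60). Pck1 fell in the siLuc-LNP arm (-2.01, SE 0.452, adjusted p = 0.00213) and the siHAS2-LNP arm (-1.72, SE 0.449, adjusted p = 0.012), and did not pass in untreated mice (-1.08, SE 0.535, adjusted p = 0.121) or in the 4MU arm, where it was higher (0.77, SE 0.457, adjusted p = 0.235). Got1, the cytosolic aspartate transaminase, fell by 0.57 (log2 fold change -0.57, SE 0.137, adjusted p = 0.00124).

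Of 9 genes of the switch kinases and their partners, 4 were higher and 3 lower, beside 26.3% and 25.6% of all genes. Pdk3, a kinase that inactivates pyruvate dehydrogenase, rose by 1.99 (SE 0.211, adjusted p = 2.67e-08), while its relative Pdk1 fell by 0.95 (log2 fold change -0.95, SE 0.121, adjusted p = 4.78e-07). Pdk3 was low, with group means of 0.42 to 0.71 CPM without CCl4 and 1.598 to 3.635 CPM with it. Pfkfb3, whose product raises fructose-2,6-bisphosphate and with it glycolysis, rose by 1.20 (SE 0.217, adjusted p = 5.99e-05). Gckr, which encodes a regulatory protein of hepatocyte glucose use, fell by 0.79 (log2 fold change -0.79, SE 0.101, adjusted p = 5.63e-07).

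Of 7 glucose and lactate transporters, 3 were higher and 1 lower, beside 26.3% and 25.6% of all genes. The lactate exporter gene Slc16a3 rose by 1.16 (SE 0.210, adjusted p = 6.31e-05), its chaperone Bsg by 0.42 (SE 0.0795, adjusted p = 0.000103) and Slc16a1 by 0.41 (SE 0.133, adjusted p = 0.0129). Slc16a3 was low, with means of 0.48 CPM in control and 1.54 CPM in CCl4 mice. Its means were 0.80 CPM in siHAS2-LNP and 0.77 CPM in CCl4+siHAS2-LNP mice. In the 4MU arm Slc16a1 was at -0.21 (adjusted p = 0.594). Slc2a2, the hepatocyte glucose carrier GLUT2, fell by 0.34 (log2 fold change -0.34, SE 0.123, adjusted p = 0.023). Of 8 glycogen enzymes and their scaffolds, 1 was higher and 6 lower, beside the same 26.3% and 25.6% of all genes. The glycogen-targeting phosphatase subunits Ppp1r3c (-1.29, SE 0.183, adjusted p = 2.47e-06) and Ppp1r3b (-0.85, SE 0.219, adjusted p = 0.00225) fell most, and the branching enzyme gene Gbe1 fell by 0.48 (log2 fold change -0.48, SE 0.130, adjusted p = 0.0034).

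Of 17 regulators of glucose genes, 2 were higher and 8 lower, with a median of -0.28, beside 26.3% and 25.6% of all genes. Those that fell most were Gcgr, the glucagon receptor (-0.75, SE 0.119, adjusted p = 1.09e-05), Mlxipl, the carbohydrate-sensing factor ChREBP that drives Pklr (-0.67, SE 0.154, adjusted p = 0.000779), and Cebpa (-0.65, SE 0.139, adjusted p = 0.000372). By arm, Mlxipl was at -1.71 in untreated mice (adjusted p = 0.000841) and -0.88 in the 4MU arm (adjusted p = 0.0301). It was at -0.57 in the siLuc-LNP arm (adjusted p = 0.161) and 0.47 in the siHAS2-LNP arm (adjusted p = 0.324). Myc rose by 0.72 averaged (SE 0.289, adjusted p = 0.0411). Of the arms, Myc passed only in that of siLuc-LNP (1.70, adjusted p = 0.0387), with 0.15 to 0.70 and adjusted p of 0.407 to 0.897 in the others. In the same averaged effect, and beside the same shares of all genes, 1 of the 7 hepatocyte markers was higher and 3 lower, with a median of -0.31. Their sums were 159000 to 197000 CPM in control and 73000 and 128000 CPM in CCl4 mice, but 124000 to 152000 CPM in 4MU and 147000 to 176000 CPM in CCl4+4MU mice, and their part in these falls was not tested.

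**Figure D4:**
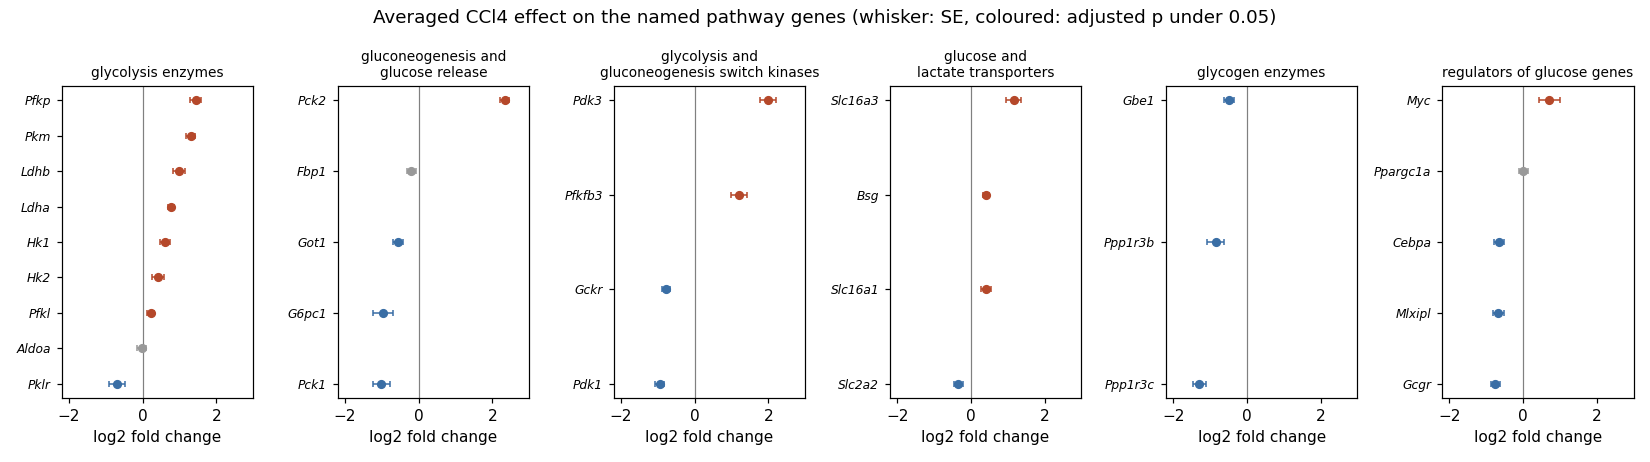
Log2 fold change (horizontal axis, whiskers are SE) of the pathway genes named in the text, by list, in the CCl4 effect averaged over 4 arms; red points were higher and blue points lower at an adjusted p under 0.05, and grey points did not pass. Pck2 (2.34) and Pdk3 (1.99) lie farthest to the right, and Ppp1r3c (-1.29) and Pck1 (-1.01) farthest to the left.

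In livers given CCl4, Gckr and Mlxipl were higher with 4MU and with siHAS2-LNP than with CCl4 alone. With 4MU against CCl4 alone, 11 of the 71 pathway genes were higher and 7 lower, with a median of 0.30, beside 18.3% of all genes called and a median of 0.0375. With siHAS2-LNP, 6 were higher and 4 lower, with a median of 0.062, beside 14.4% of all genes. With siLuc-LNP 0 of the 71 were higher and 0 lower, beside 0.248% of all genes. For siHAS2-LNP against siLuc-LNP 0 were higher and 1 lower, beside 1.09%. Mlxipl was higher by 1.41 with 4MU (SE 0.358, adjusted p = 0.00918) and by 1.70 with siHAS2-LNP (SE 0.363, adjusted p = 0.00419), whereas Pklr did not pass in either. With siLuc-LNP, Mlxipl was at 0.80 (adjusted p = 0.287) and Gckr at 0.44 (adjusted p = 0.383). Against siLuc-LNP, siHAS2-LNP gave 0.90 for Mlxipl (adjusted p = 0.101) and 0.39 for Gckr (adjusted p = 0.272), and neither passed. Slc16a1 was lower by 1.17 (log2 fold change -1.17, SE 0.281, adjusted p = 0.00657) and Pdk3 by 1.18 (log2 fold change -1.18, SE 0.395, adjusted p = 0.0395) with 4MU. Pck2 did not differ past the threshold with 4MU (0.11, SE 0.243, adjusted p = 0.769) or siHAS2-LNP (-0.42, SE 0.241, adjusted p = 0.25). Pck1 was higher by 1.54 with 4MU without passing (SE 0.549, adjusted p = 0.051) and was at -0.45 with siHAS2-LNP (SE 0.501, adjusted p = 0.577).

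For the remaining members, the genes with the most similar levels were as follows, each as a rank correlation over the 27 libraries. For Pklr they were Hcn3 (rho 0.869), Ttc7b (0.844) and Slc25a44 (0.841). Hcn3 overlaps the 3' end of Pklr on the other strand in the annotation, and since the strand setting of the counting was not given, shared reads cannot be told apart. For Hk2 they were Ifi202b (0.843), Phf11b (0.833) and Rgs2 (0.812). For Aldoa they were Elp5 (0.742), Gm5559 (0.707) and Polr2e (0.681), and for Ppargc1a they were Cep85l (0.652), Mycbp2 (0.650) and Gm9917 (0.629), the weakest of the 8 members.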

How the data were processed

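Total liver RNA of 27 mice was sequenced as polyA-selected, strand-specific, paired-end libraries. The authors trimmed reads with Trimmomatic 0.39, aligned them to GRCm39 (Ensembl annotation) with HISAT2 and deposited raw counts of read pairs per gene from featureCounts, leaving out multi-mapping reads. The HISAT2 version and the strand setting are not given in the sources used here. The deposited counts are whole numbers and not normalised.

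Gene symbols and positions came from GENCODE vM39 (GRCm39), which matched 54749 of 55414 identifiers. The 14114 genes averaging 10 counts or more entered 1 fit of all 8 groups with edgeR 4.0.16 in R 4.3.3 (TMM, quasi-likelihood test, Benjamini-Hochberg adjusted p under 0.05). The 34 pairs of libraries within groups differed beyond counting noise (chi-square per degree of freedom 15.9 to 458). Each library is a separate mouse. Tables and figures used Python 3.11.15, and the fit was tested on simulated data with 200 changed genes.

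The members and the gene lists were chosen with earlier results of these data known. Named genes are the 8 members, up to 4 genes per pathway list past the threshold with the largest change in the averaged CCl4 effect, the paired enzymes Hk1, Ldhb, Pfkl and Pck1, and for each member the 3 genes of highest Spearman rho. Some genes that this rule takes, and ratios to them, are not reported here, though list counts include them. Alternatives were DESeq2 1.42.0, edgeR with DESeq2 size factors, all genes kept whatever their counts, a fit of the compared groups only, the replicate number as a block, a log2 cut at 1 in either direction, and each mouse left out. Promoters are RefSeq windows (GRCm38.p6 table) placed on GRCm39 by exact match, and were found for all 8 members (G6pc1 under its older symbol G6pc). Each SE was derived from the quasi-likelihood test, as the absolute log2 fold change divided by the square root of the F statistic. The 95% intervals are normal intervals from these standard errors.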

Additional observations from a re-analysis of the deposited data

Results flagged for a closer look

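Among the 32 sets of 4 mice and 1 gene that were examined for a single mouse standing apart, 1 was found: Ldha in control mouse 3 was at 595.1 CPM, while the other 3 controls lay between 791.3 and 808.8 CPM. The gap was 0.918 of the range of the group. Chance gives about 1 such gap in 20 groups. Leaving this mouse out did not end the rise of Ldha in CCl4 against control mice.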

How the results depend on the processing

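Of 50 member fold changes under each setting, 44 by DESeq2, 50 with its size factors, 40 without the low-count filter and 41 with the replicate block kept their direction and their side of the threshold, as did 37 of 42 with only the compared groups. The cause was not tested except where fewer mice or genes entered by construction. Same-numbered mice of different groups had a median correlation of deviations of -0.0213 (-0.367 to 0.39, over 83 pairs). Pairs with different numbers had a median of -0.012 (-0.512 to 0.512, over 234 pairs). These values do not test for a batch tied to the replicate number. With it as a replicate block, 2 members were called in the siHAS2-LNP arm (10.9% of genes), 1 for siHAS2-LNP in CCl4 livers (12.9%) and 0 for siHAS2-LNP against siLuc-LNP there (0.085%), and Pklr in CCl4 against control (-1.21, adjusted p = 0.0708) and Hk2 averaged (0.41, adjusted p = 0.0525) did not pass. Under the replicate block the values that turned were 0.0837 for Aldoa in CCl4 against control, -0.121 for Pklr in the 4MU arm, and 0.00235 for Aldoa and -0.0276 for Ppargc1a averaged, none of which had passed. With a log2 cut at 1 in either direction, the members called were 1 in the siLuc-LNP arm (11.6% of genes), 0 in the siHAS2-LNP arm (6.78%), 1 averaged (11.1%), 1 for 4MU (8.07%) and 1 for siHAS2-LNP (7.5%) in CCl4 livers and 0 against siLuc-LNP (0.482%). With only the compared groups they were 1 in the siLuc-LNP arm (10.7%), 2 in the siHAS2-LNP arm (16.5%), 1 for siHAS2-LNP in CCl4 livers (11.5%) and 0 against siLuc-LNP (0 genes in all), and G6pc1 passed for 4MU in CCl4 livers (0.79, adjusted p = 0.0216). Without the low-count filter they were 2 in the siHAS2-LNP arm (6.31%), 1 for siHAS2-LNP in CCl4 livers (6.72%) and 2 for the interaction of 4MU with CCl4 (4.45%), and Pklr passed in the siLuc-LNP arm (-0.90, adjusted p = 0.00339) and for 4MU in CCl4 livers (1.25, adjusted p = 0.000857). DESeq2 called 4 for 4MU in CCl4 livers (21.5%) and 3 for that interaction (11.4%).

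With each mouse left out in turn, the members called were 1 to 2 in the siHAS2-LNP arm, 1 to 3 for 4MU in CCl4 livers, 0 to 1 for siLuc-LNP, 1 to 2 for siHAS2-LNP and 0 to 1 for siHAS2-LNP against siLuc-LNP in CCl4 livers, and 0 to 1 for the interaction of 4MU. The shares of all genes called in these fits are not given here, so a change in the number of members called has no background beside it. Fold changes that turned had not passed: Aldoa in CCl4 against control (-0.283 to 0.231) and averaged (-0.0847 to 0.0739), G6pc1 (-0.753 to 0.375) and Pklr (-0.246 to 0.517) in the 4MU arm, Hk2 in the siLuc-LNP (-0.197 to 0.568) and siHAS2-LNP (-0.207 to 0.135) arms, and Ppargc1a averaged (-0.0574 to 0.0796). With the canonical transcript length, chosen after seeing the data, the log2 ratios in control mice became -3.30 for Pkm to Pklr, -1.20 for Hk2 to Hk1 and 5.76 for Fbp1 to Pfkl. Hk2, with as few as 10 counts, is the member most limited by depth, and the CCl4 group of 2 mice limits every comparison with it.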

Other observations

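Among the 71 tested pathway genes, 4 passed the edgeR test of whether CCl4 acted differently with 4MU than without, beside 5.67% of all genes. This count lies near that share and is not read as a result about the pathway. The genes named here were chosen after their values were seen. Klf15, a factor that induces gluconeogenic genes in fasting, was at 1.58 (standard error 0.449, adjusted p = 0.0407). Creb1, a factor of the glucagon response, was at -1.01 (standard error 0.289, adjusted p = 0.0415), and Ugp2, which makes the UDP-glucose used for glycogen, at -1.12 (standard error 0.320, adjusted p = 0.041).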
